A study of Homo sapiens with 2 samples.

Results

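Heat shock protein and chaperonin genes were compared between NB4 cells with and without knockdown of the long non-coding RNA CRNDE. The members were taken by name from the symbols listed in both libraries: the HSPA to HSPH genes, the cytosolic HSP90 genes, the DNAJA, DNAJB and DNAJC genes, TCP1 and the CCT genes, the BAG genes, the prefoldin genes and HSF1, with HSPA5, DNAJB9, DNAJC3 and DNAJC19 left out. This gave 68 of 11619 listed genes. One of the 68, HSPG2, matches the name pattern but encodes perlecan, a heparan sulfate proteoglycan of the extracellular matrix and not a chaperone, and counts are also given without it. HSPB11, a further member by name, encodes a protein of intraflagellar transport.

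NB4 is a human acute promyelocytic leukemia (APL) cell line with the PML/RARα fusion. Its cells received a lentivirus that carried either an shRNA against CRNDE (sh-CRNDE) or a non-targeting shRNA (sh-Control), with the fluorescent protein ZsGreen1 as selection marker, and RNA was taken on day 3. Each group had 1 library, so no difference has a replicate check, no p-value is given, and "past 1.5-fold" is a call by size only. Which CRNDE shRNA was used for sequencing is not given in the sources used here. The deposited unit is FPKM (fragments scaled to transcript length and to the mapped fragments of the library). Where a pair of FPKM values is given, sh-Control comes first. A change below is log2(FPKM + 1) in sh-CRNDE less that in sh-Control, which understates the change of low genes. CRNDE itself fell from 5.92 to 1.85 FPKM, a change of -1.28. Of the promyelocyte markers, all 5 that were analysed were above 1 FPKM in both libraries (MPO, for example, at 1135 and 738 FPKM), and all 5 had a change below 0, from -0.20 in CD33 to -2.23 in PRTN3 (201 and 41.8 FPKM). The part of this shift in the changes below was not tested. The lymphoid marker CD79A was at 1.02 and 0.256 FPKM. The sum of all FPKM outside the mitochondrially encoded genes was 141046 and 142618. Fewer cells of a type and less RNA per cell cannot be told apart in these bulk samples.

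Chaperones bind unfolded or newly made proteins and help them to reach or keep their native shape. HSP70 proteins do so in cycles of ATP binding and hydrolysis, in which J-domain proteins (DNAJ) deliver substrates and stimulate hydrolysis. HSP110 proteins and BAG proteins such as BAG1 release the nucleotide. HSP90 then acts late on kinases, nuclear receptors and other clients. The TCP1 ring complex, fed by prefoldin, encloses actin, tubulin and other substrates in a chamber, and HSPD1 with its lid HSPE1 does the same in mitochondria. HSF1 is the transcription factor that induces many of these genes after heat or other protein damage, by binding repeats of the 5-base unit nGAAn in their promoters.

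Most chaperone genes stood slightly higher in the knockdown library, and few were past 1.5-fold. The change was above 0 in 48 of the 68 genes (70.6%), against 49.2% of all listed genes, and the median change was 0.18, against -0.01 over all genes. After quantile normalization the median of the members was 0.11. Past 1.5-fold, 4 members rose and 4 fell. Together these were 11.8% of the members, while 17.2% of all listed genes were past 1.5-fold either way, so large changes were not more frequent among the chaperone genes than elsewhere. The genes that rose were HSP90AA1, HSPA8, DNAJC1 and DNAJC2, with 5.88% of the members against a background of 8.38%. Those that fell were HSPA13, BAG4, HSPG2 and DNAJC30, which is listed at 0 in the knockdown library, again 5.88% of the members, against a background of 8.83%. Without HSPG2, 7 of 67 members were past 1.5-fold and the median change was 0.19. When the FPKM values were rescaled to one sum per library without the mitochondrially encoded genes, which also makes the pseudocount of 1 smaller beside each value, 7 members were higher and 4 lower past 1.5-fold, beside 27.8% of all genes past it either way. The added genes, DNAJC24, DNAJB4 and CCT6B, were under 2 FPKM in both libraries. A gene is listed only if it is above 0.5 FPKM in at least 1 library. DNAJC24 (0.495 and 0.947 FPKM) and CCT6B (0.360 and 0.959 FPKM) are listed only through sh-CRNDE, and DNAJC30 only through sh-Control. The direction of their changes was therefore fixed by the listing, though they are in the counts above. Just inside the threshold of 0.585 on the log2 scale were DNAJC2 (0.657), HSPA8 (0.729) and DNAJC1 (0.768), and just outside it BAG6 (-0.540), CCT6B (0.527) and DNAJC21 (0.523).

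**Figure D1:**
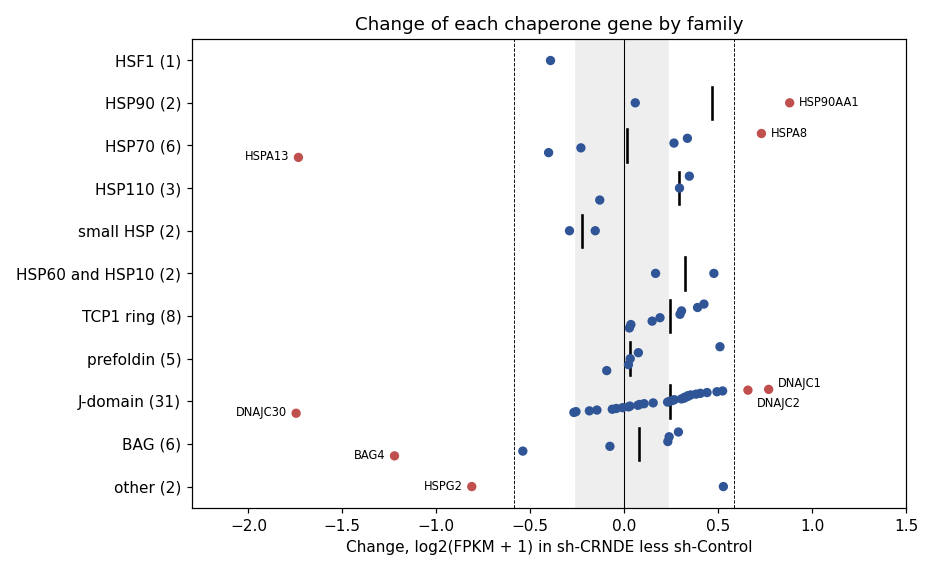
Each point is 1 of the 68 genes, placed on the x axis by its change, log2(FPKM + 1) in sh-CRNDE less sh-Control, and grouped by family on the y axis with the number of genes in brackets. Red points are past 1.5-fold (dashed lines), black bars are family medians (none is drawn for "other", which is CCT6B and HSPG2), and the grey band runs from -0.26 to 0.23, the middle part of all listed genes from the 25th to the 75th percentile. The small HSP group holds HSPB1 and, by name only, HSPB11 of intraflagellar transport. All 8 TCP1 ring points lie right of 0, and 4 genes lie past the right and 4 past the left dashed line.

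The levels covered a wide range, and a few genes held most of the transcripts. In sh-Control the members ran from 0.360 FPKM (CCT6B) to 671 FPKM (HSP90AB1), with a median of 10.1 FPKM. In sh-CRNDE they ran from DNAJC30, listed at 0, to 1134 FPKM (HSP90AA1), with a median of 11.2 FPKM. HSP90AA1, HSP90AB1, HSPA8 and HSPD1 were the 4 highest members in both libraries, and together they held 49.1% and then 55.2% of the summed FPKM of the members. The members as a whole made up 2.79% of the FPKM outside the mitochondrially encoded genes in the control library and 3.59% in the knockdown library. Of the FPKM of all listed genes they made up 2.79% and then 3.0%, since the mitochondrially encoded genes summed to 172 and 27755 FPKM. Of the net increase in their summed FPKM, from 3936 to 5119, HSP90AA1 alone accounted for 43.8%, HSPA8 for 19.8% and HSPD1 for 9.59%.

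The abundant members were all on the higher side. All 13 members with a mean of at least 100 FPKM had a change above 0, with a median of 0.30, whereas 59.7% of the 191 genes at that level did, with a median of 0.06. CCT3 reached this mean only through sh-CRNDE (89.9 and 121 FPKM), so its place in the group depends on the change described. The 13 genes were the HSP90 pair, HSPA8, HSPA9, HSPD1, HSPE1, DNAJA1 and 6 of the 8 TCP1 ring subunits. Of the 13, only HSP90AA1 and HSPA8 were past 1.5-fold, which is 15.4%, while 7.85% of the 191 abundant genes were higher and 5.24% lower past 1.5-fold. In the order of change among these 191 genes, HSP90AA1 was in place 12, HSPA8 in place 15 and HSPD1 in place 19. Among the 55 members with a lower mean, 35 had a change above 0 and the median was 0.07.

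**Figure D2:**
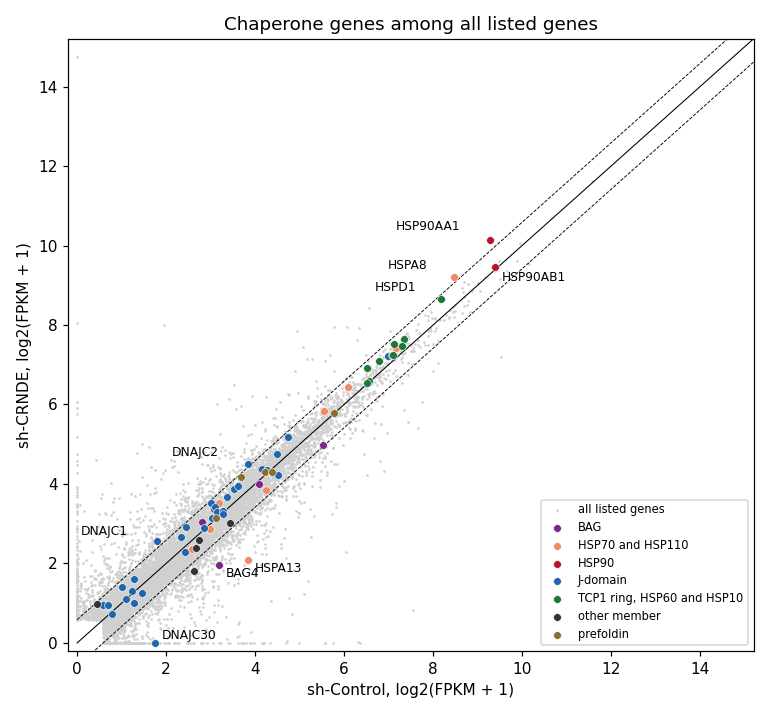
Level of every listed gene in the control (x axis) and knockdown (y axis) library, both as log2(FPKM + 1), with the 68 members coloured by family. The solid line marks equal values and the dashed lines a change of 1.5-fold. The abundant members sit on or above the solid line, with HSP90AA1 and HSPA8 above the upper dashed line, and DNAJC30, HSPA13 and BAG4 lie below the lower one.

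HSF1, the heat shock transcription factor, was at 9.76 and 7.17 FPKM. Its change of -0.40 was not past 1.5-fold. The list of textbook heat-inducible genes also holds HSPA8 and HSP90AB1, which are expressed at a high level without stress. Of its 13 members that were analysed, 2 rose past 1.5-fold (HSP90AA1 and HSPA8), 0 fell, and 11 were not past it, so that 15.4% were higher past 1.5-fold, against 8.38% of all genes. The median change was 0.15, and 0.08 after quantile normalization. HSPA6 was not analysed here. The remaining 11 had changes on either side of 0, the highest of them in HSPD1 (0.48), HSPH1 (0.29), DNAJA1 (0.24) and HSPE1 (0.17). HSPA1B, an inducible HSP70 gene, was at 18.0 and 13.4 FPKM (-0.40), and its near-identical neighbour HSPA1A at 5.00 and 4.12 FPKM (-0.23). The FPKM of each is uncertain, since reads of one can be assigned to the other, but their sum was also lower in sh-CRNDE, from 23.1 to 17.5 FPKM (-0.38, not past 1.5-fold). HSPB1, which encodes the small heat shock protein HSP27, was at 5.40 and 4.22 FPKM (-0.29). BAG3, an HSF1 target that links HSP70 to autophagy, was at 15.9 and 15 FPKM (-0.08). DNAJB1, the inducible HSP40, was at 7.82 and 8.80 FPKM (0.15). The level of HSPA8 was 15.4 times that of HSPA1A and HSPA1B together in sh-Control and 33.6 times in sh-CRNDE.

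The promoters of these genes were searched for the heat shock element, since HSF1 acts through this sequence. RefSeq promoter windows on GRCh38.p14, from 250 bases before to 50 bases after each annotated start, were found for 60 of the 68 members, in 79 windows. The long form of the element, 3 linked units, was searched as GAANNTTCNNGAA or TTCNNGAANNTTC, which are each other's reverse complement and so cover both strands. Such an element was found in 0.490% of all 35116 windows and in 6 of the 79 member windows (7.59%), those of HSP90AA1, HSP90AB1, HSPA8, HSPD1, DNAJA1 and DNAJB6. The element of DNAJA1 begins at base 4 after the start and is not shown. Those before a start are given below 5′ to 3′ in the direction of the gene, with the element in capitals, because they include those of HSP90AA1 and HSPA8, the abundant genes that rose, and those of HSP90AB1 and DNAJB6, which hardly differed.
HSP90AA1, chr14:102087114-102087138, minus strand: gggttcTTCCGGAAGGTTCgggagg
HSPA8, chr11:123062348-123062372, minus strand: gagcttGAAAGTTCCAGAAcgctgc
HSPA8, chr11:123062173-123062197, minus strand: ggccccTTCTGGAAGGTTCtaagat
HSPD1, chr2:197500062-197500090, minus strand: gcattTTCTGGAAAGTTCTGGAAccgagc
HSP90AB1, chr6:44247772-44247796, plus strand: agcaggTTCTGGAAGATTCatgggc
HSP90AB1, chr6:44247825-44247849, plus strand: agattgTTCTGGAAGCTTCtggatt
DNAJB6, chr7:157336867-157336891, plus strand: agccgaGAACCTTCGCGAAggtggg
Each start here is the RefSeq start of the window. The gene coordinates given below for HSP90AA1, HSPA8, HSPD1 and HSP90AB1 reach further upstream and take in their elements. The HSP90AA1 element begins 88 bases before the start, and those of HSPA8 230 and 55 bases before it. In HSPD1 a pair of overlapping elements begins 245 bases before the start. By its annotated coordinates, the neighbouring gene HSPE1 starts at 197500140 on the plus strand, so these bases also lie before HSPE1. The RefSeq window of HSPE1 held no long form, and HSPE1 (0.17) is counted below without it. HSPD1 and HSP90AA1 each have 2 windows and HSP90AB1 has 3, and the long form was in 1 of them.

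All 6 members with the long form had a change above 0, as did 37 of the 54 with a window but no such element. The median change of the 6 was 0.36, with 2 of them past 1.5-fold. That of the 54 was 0.16, with 1 higher and 3 lower past 1.5-fold. After the median change of genes of like GC content was subtracted, HSP90AA1 was at 0.76, HSPA8 at 0.65 and HSPD1 at 0.36. DNAJA1 was then at 0.12, DNAJB6 at 0.03 and HSP90AB1 at 0.00. All of the 6 but DNAJB6 are among the 13 members with a mean of at least 100 FPKM. Those 13 were all above 0, with a median of 0.30, and the part of level in the difference was not tested. The 6 genes did not move alike, since HSP90AB1 (0.06) and DNAJB6 (0.02) carry the element and hardly differed between the libraries. Over all listed genes with a window, 37 had the element, the 6 members among them. These 37 had a median change of 0.11, with 7 genes higher, HSP90AA1 and HSPA8 included, and 0 lower past 1.5-fold. The 7901 genes without the element had a median of -0.01, with 561 higher and 635 lower past 1.5-fold. The short form, 2 linked units searched as GAANNTTC or TTCNNGAA, which also occurs inside the long form, was in 13.5% of all windows and in 27.8% of the member windows. HSPA1A and HSPA1B held the short form and not the long one, shown here because the pair is the classical inducible HSP70 gene pair.
HSPA1A, chr6:31815431-31815450, plus strand: accctgGAATATTCccgacc
HSPA1B, chr6:31827627-31827646, plus strand: cccctgGAATATTCccgacc
The 14 members with the short form only had a median change of 0.03, with 0 past 1.5-fold, and the 40 members with neither form one of 0.21. A match describes the letters of a window and is no evidence of HSF1 binding. Only exact units at a fixed spacing were searched, so a window without a match may still hold an imperfect element. The lack of a match is likewise no evidence that HSF1 does not bind.

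The cytosolic HSP90 genes differed from each other. HSP90AA1 (ENSG00000080824, chromosome 14, 102080742 to 102139699, minus strand, GRCh38), which encodes the more inducible form HSP90α, rose from 616 to 1134 FPKM, 1.84 times the control level and a change of 0.88. HSP90AB1 (chromosome 6, 44246166 to 44253888, plus strand), which encodes the constitutive form HSP90β, was at 671 and 698 FPKM, a change of 0.06. The order of the pair was thus reversed. HSP90AA1 stood at 0.918 times the level of HSP90AB1 in sh-Control and at 1.62 times in sh-CRNDE. By FPKM among all listed genes, HSP90AA1 was in place 10 in sh-Control and in place 3 in sh-CRNDE, and HSP90AB1 in places 9 and 8. Of all genes, 4.19% had a higher change than HSP90AA1.

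Among the HSP70 genes, the constitutive cytosolic form was higher and the microsomal form lower. HSPA8 (chromosome 11, 123057489 to 123063230, minus strand, 9 exons), which encodes HSC70, the housekeeping HSP70 that also uncoats clathrin vesicles, rose from 355 to 589 FPKM, a change of 0.73. HSPA13 (chromosome 21, 14371115 to 14383484, minus strand, 5 exons), which encodes a short HSP70 relative of microsomes, fell from 13.2 to 3.28 FPKM. Its change of -1.73 was the lowest of the members above 0 in both libraries, and 1.07% of all genes had a lower one. HSPA9, the mitochondrial HSP70 mortalin, was at 142 and 171 FPKM (0.26), and HSPA14, which works at the ribosome, at 8.09 and 10.5 FPKM (0.34). HSPA9 and HSPA14 were not past 1.5-fold.

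The HSP110 genes, whose products exchange the nucleotide of HSP70, were not past 1.5-fold. HSPA4 was at 67.2 and 85.6 FPKM (0.35), HSPH1 at 45.6 and 56.1 FPKM (0.29), and HSPA4L at 6.96 and 6.27 FPKM (-0.13). The level of HSPA8 was 7.78 times that of HSPH1 in sh-Control and 10.5 times in sh-CRNDE.

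A list of 33 chaperone partner genes outside the members held co-chaperones of HSP90 and HSP70, and also HSP90 forms of other compartments (HSP90B1, TRAP1), prefoldin-type genes (VBP1, UXT) and the regulators HSF2 and HSBP1. Of these, 5 rose past 1.5-fold and 1 fell (VBP1, a prefoldin subunit), which is 18.2% of the list against 17.2% of all genes, and the median change was -0.06. PTGES3, which encodes the HSP90 co-chaperone p23, rose from 79.4 to 242 FPKM, a change of 1.60. TOMM34, which links HSP70 and HSP90 to mitochondrial import, rose from 10.4 to 24.5 FPKM (1.16), and NUDC, which acts with HSP90 on dynein regulators, from 38.8 to 66.5 FPKM (0.76). CHORDC1, an HSP90-binding protein, rose from 8.39 to 14.6 FPKM (0.73), and ST13, the HSP70-interacting protein Hip, from 26.7 to 43.2 FPKM (0.67). Other partners of HSP90 showed little difference, among them STIP1, which hands substrates from HSP70 to HSP90 (72.9 and 88.1 FPKM, 0.27), CDC37, the kinase adaptor (68.4 and 63.1 FPKM, -0.11), and AHSA1, which stimulates the HSP90 ATPase (48.1 and 44.7 FPKM, -0.10). The HSP90 forms of the other compartments did not share the direction of HSP90AA1. HSP90B1 of the endoplasmic reticulum was at 179.8 and 180.4 FPKM (0.00), and TRAP1 of mitochondria at 52.2 and 36.7 FPKM (-0.50, not past 1.5-fold).

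**Figure D3:**
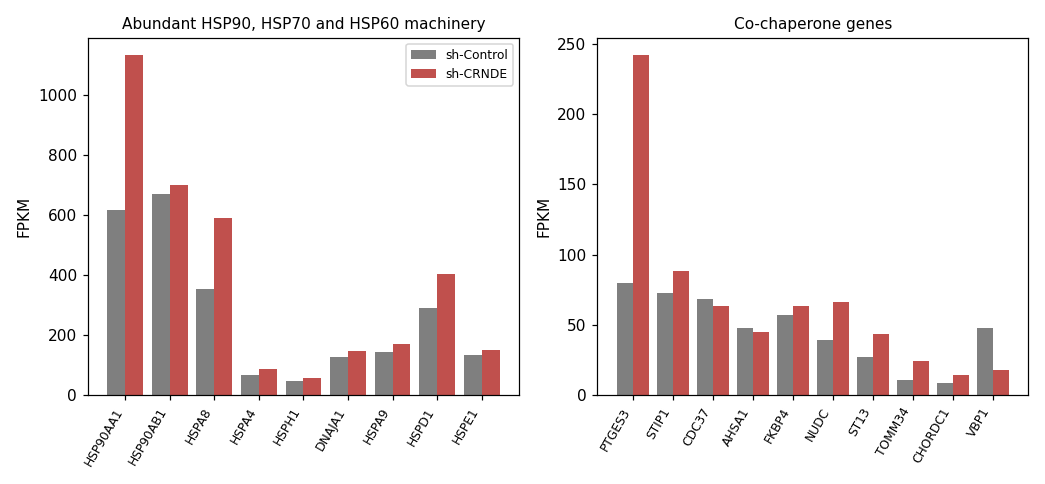
FPKM (y axis, from 0) of abundant chaperone genes (left) and of 10 co-chaperone genes (right) in sh-Control (grey) and sh-CRNDE (red), with 1 library per bar and so no error bars. HSP90AA1 passes HSP90AB1 in sh-CRNDE, PTGES3 reaches 242 FPKM from 79.4 FPKM, and VBP1 drops from 47.8 to 17.7 FPKM.

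The J-domain proteins were the largest family, with 31 genes, of which 2 rose, 1 fell and 28 were not past 1.5-fold. This is 9.68% of the family past it, against 17.2% of all genes. The change was above 0 in 23 of them (74.2%, against 49.2% of all genes), and the median was 0.24. Their levels were mostly modest, from 0.495 FPKM (DNAJC24, an enzyme of diphthamide synthesis) to 125 FPKM (DNAJA1) in sh-Control. Their summed FPKM was 354 and 420.0, a ratio of 1.19. HSPA8 stood at 2.84 times the level of its J-domain partner DNAJA1 in the control library and at 3.98 times in the knockdown library.

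In the cytosol none of the 6 J-domain genes was past 1.5-fold. DNAJA1, the most abundant, was at 125 and 148 FPKM (0.24), and DNAJA2 at 21.7 and 26 FPKM (0.25). DNAJB6, which keeps aggregation-prone proteins soluble, was at 8.77 and 8.92 FPKM (0.02). DNAJB4 had the highest change of this class, 0.40, but was only at 1.02 and 1.67 FPKM.

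J-domain genes of the nucleus and the ribosome were higher in 5 of 5 cases, against 74.2% of all J-domain members and 49.2% of all genes. The median change of this class was 0.44, and 0.36 after GC correction. DNAJC2 (chromosome 7, 103312289 to 103344830, minus strand), which encodes the ribosome-associated partner of HSPA14, rose from 13.3 to 21.5 FPKM, a change of 0.66. DNAJC21, which acts in the maturation of the large ribosomal subunit, was at 7.03 and 10.5 FPKM (0.52). DNAJC8, a protein of the spliceosome, was at 25.7 and 35.2 FPKM (0.44), and DNAJC17, also tied to splicing, at 1.42 and 2.06 FPKM (0.34). DNAJC9, a histone chaperone, had the smallest change, 0.23, from 16.7 to 19.8 FPKM. Of the 5, only DNAJC2 was past 1.5-fold, and after the median change of genes of like GC content was subtracted it was not (0.50).

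In the endoplasmic reticulum, 7 of 8 J-domain genes (87.5%, against 49.2% of all genes) had a change above 0, with a median of 0.21. DNAJC1 (chromosome 10, 21756548 to 22003769, minus strand), a membrane J-domain protein that reaches ribosomes, rose from 2.45 to 4.87 FPKM, a change of 0.77. DNAJC10, a disulfide reductase, was at 4.41 and 6.61 FPKM (0.49), and DNAJB11, a soluble J-domain protein of the lumen, at 9.27 and 11.8 FPKM (0.32). DNAJC14 differed least in this class (6.24 and 6.39 FPKM, 0.03).

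The J-domain genes of vesicles and endosomes were the only class of this family with no member above 0, but it held 3 genes with small changes. DNAJC5, the cysteine string protein, was at 21.7 and 17.9 FPKM (-0.27), DNAJC13 of early endosomes at 8.75 and 8.47 FPKM (-0.04), and DNAJC6, auxilin, which recruits HSPA8 to clathrin coats, at 1.16 and 1.14 FPKM (-0.01). Of the remaining genes, DNAJC24 had the largest change (0.495 and 0.947 FPKM, 0.38) and DNAJC25 the smallest in size (4.4 and 3.88 FPKM, -0.15). DNAJC24 is listed only through sh-CRNDE, so the direction of its change was fixed by the listing. DNAJC25 shares exons with the readthrough gene DNAJC25-GNG10, which was at 4.07 and 7.65 FPKM, so the split of reads between the 2 genes is uncertain.

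DNAJC30, a J-domain protein of mitochondria that interacts with the ATP synthase, was at 2.36 FPKM in the control library. In the knockdown library it is listed at 0, and no fold is given for it. The gene is thus listed only through sh-Control. It is 1 of 3 members with a single exon, together with HSPA1A and HSPA1B. Of the 688 listed genes with a single exon, 37.1% are listed at 0 in a library, against 0.518% of the other annotated genes.

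The BAG family, which holds nucleotide exchange factors of HSP70 and their relatives, was split, with 3 genes above and 3 below 0. Its median change was 0.08. BAG4 (5 exons), also known as a silencer of death domains of TNF receptors, fell from 8.10 to 2.90 FPKM, a change of -1.22. BAG6, which guides tail-anchored and misplaced membrane proteins, was at 45.0 and 30.6 FPKM (-0.54), just short of 1.5-fold. BAG1, an HSP70 exchange factor that binds BCL2, was at 16.5 and 19.7 FPKM (0.24), BAG2, an inhibitor of the ubiquitin ligase STUB1, at 6.0 and 7.21 FPKM (0.23), and BAG5 at 7.43 and 9.28 FPKM (0.29). The summed FPKM of the family was 98.9 and 84.7, while the summed FPKM of the HSP70 genes was 541 and 791.

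The 8 subunits of the TCP1 ring are present in equal number in the complex, and their FPKM lay close together. In sh-Control they ran from 89.9 FPKM (CCT3) to 162 FPKM (CCT4), and in sh-CRNDE from 92.5 FPKM (CCT2) to 199 FPKM (CCT4), so the highest was 1.81 and 2.16 times the lowest. All 8 had a change above 0, against 49.2% of all genes. The changes ran from 0.03 to 0.42, with a median of 0.24, and none was past 1.5-fold. TCP1 (93.6 and 95.9 FPKM, 0.03) and CCT2 (90.8 and 92.5 FPKM, 0.03) were nearly level. CCT7 (0.15), CCT5 (0.19), CCT4 (0.30) and CCT8 (0.30) stood between. CCT6A, at 138 and 181 FPKM (0.39), and CCT3, at 89.9 and 121 FPKM (0.42), had the highest changes. After GC correction 6 of the 8 were above 0, with TCP1 and CCT2 each at -0.09. After quantile normalization 6 of the 8 were above 0, with CCT7 at -0.01, and the median was 0.13. CCT6B, the testis form of the CCT6 subunit, was low in both libraries, at 0.360 and 0.959 FPKM.

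Prefoldin, the hexamer that hands actin and tubulin to the TCP1 ring, was less even in level. PFDN2, a beta-type subunit, was at 53.5 and 54.3 FPKM (0.02), and PFDN6 at 7.67 and 7.86 FPKM (0.03), so PFDN2 was 6.97 and 6.91 times as high. PFDN5 (17.6 and 18.5 FPKM, 0.07) and PFDN1 (19.9 and 18.6 FPKM, -0.09) also hardly differed. PFDN4 was at 11.8 and 17.2 FPKM, a change of 0.51 that was not past 1.5-fold. The median over the 5 genes was 0.03. VBP1, which encodes the remaining subunit and is in the co-chaperone list, stood apart from them, and fell from 47.8 to 17.7 FPKM, a change of -1.38.

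**Figure D4:**
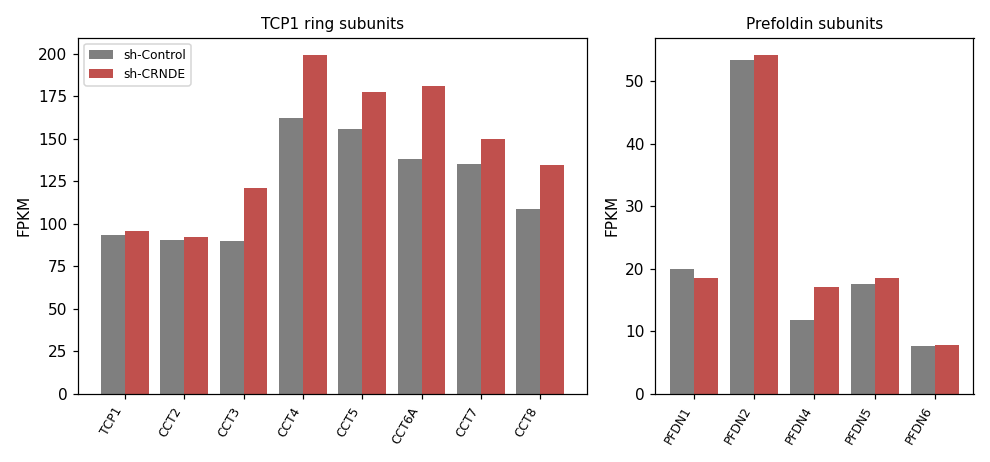
FPKM (y axis, from 0) of the 8 TCP1 ring subunits (left) and of the 5 prefoldin members (right) in sh-Control (grey) and sh-CRNDE (red), with 1 library per bar and so no error bars. The red bar is the taller one in all 8 ring subunits, by little in TCP1 and CCT2, while in prefoldin the bars differ clearly only in PFDN4.

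The mitochondrial chaperones among the members were higher in 5 of 6 genes analysed (83.3%, against 49.2% of all genes). Their median change was 0.21 (0.08 after quantile normalization). Of the mitochondrial chaperones outside the members, TRAP1 (-0.50) and HSCB (-0.35) were below 0, and GRPEL1 (0.34) and GRPEL2 (0.26), exchange factors of HSPA9, above it. DNAJC15 and DNAJC28 were not analysed here. HSPD1 (chromosome 2, 197486584 to 197516737, minus strand), which encodes HSP60, was at 289 and 402 FPKM, a change of 0.48 that was not past 1.5-fold. HSPE1, its neighbour on the opposite strand, which encodes the HSP10 lid, was at 135 and 151 FPKM (0.17). HSPD1 stood at 2.15 times the level of HSPE1 in sh-Control and at 2.66 times in sh-CRNDE. DNAJA3, the J-domain partner of HSPA9, was at 7.61 and 9.63 FPKM (0.30), and DNAJC11, tied to the cristae, at 18.3 and 19.2 FPKM (0.07).

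The change of a gene went with its GC content across all genes, and chaperone transcripts are poor in GC. The median GC content of the canonical transcripts was 44% in the members and 48.3% in all annotated genes, and the median change of all genes went from 0.18 in the decile lowest in GC to -0.31 in the highest. After the median change of genes in the same GC decile was subtracted, the median of the members was 0.13, and 3 members were higher and 3 lower past 1.5-fold. Under the same subtraction, 887 of the 11508 annotated genes were higher and 813 lower, so 14.8% were past 1.5-fold. HSP90AA1 (0.76), HSPA8 (0.65) and DNAJC1 (0.78) remained past it, as did HSPA13 (-1.92), BAG4 (-1.38) and DNAJC30, while HSPG2 (-0.50) and DNAJC2 (0.50) did not. HSF1 (-0.09), HSPB1 (0.02), HSPA1A (-0.03) and HSPE1 (0.00) were then close to 0. The TCP1 ring had a median of 0.18 and the heat-inducible members one of 0.07. Of the co-chaperones, PTGES3 (1.44), TOMM34 (1.24), NUDC (0.91) and VBP1 (-1.57) stayed past 1.5-fold, and CHORDC1 (0.55) and ST13 (0.51) did not.

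**Figure D5:**
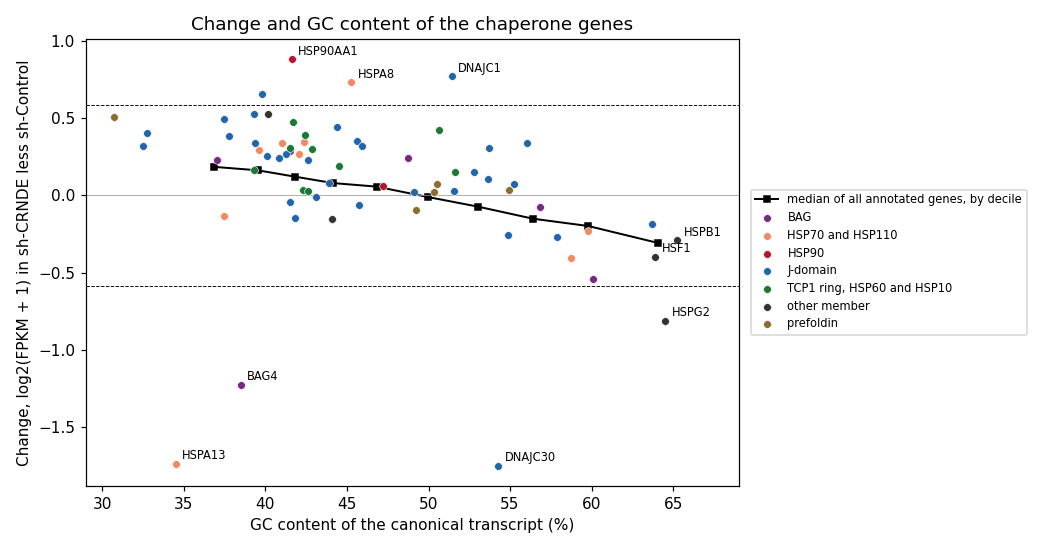
Change of each member (y axis, log2(FPKM + 1) in sh-CRNDE less sh-Control) against the GC content of its canonical transcript in percent (x axis), coloured by family, with the median of all annotated genes in each GC decile as black squares and 1.5-fold as dashed lines. The black line falls from 0.18 to -0.31, and HSP90AA1, HSPA8 and DNAJC1 lie far above it while HSPA13, BAG4 and DNAJC30 lie far below it.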

How the data were processed

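Total RNA of 2 NB4 libraries, 1 per group, was made into TruSeq libraries. The submitters' processing notes name fastp 0.20.0, HISAT2 2.0.4, StringTie 1.2.3 and GRCh38. The authors deposited FPKM values per gene, and all 11619 listed genes are above 0.5 FPKM in at least 1 library. Read counts were not used here. Of the 500 lowest values per library, multiplied by transcript length, 13.2% and 9.60% lay within 0.05 of a whole multiple of the smallest, so the depth is unknown and no counting error is given.

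From the deposited FPKM, log2(FPKM + 1) was compared between the libraries without further scaling, and 1.5-fold, the threshold the study used, was taken here too. Genes were matched by Ensembl identifier, and the 11508 with annotation took coordinates (1-based), exon number and GC content (canonical transcript) from GENCODE release 44. Promoter sequences are RefSeq's, on GRCh38.p14. The members and gene lists were chosen with earlier results of these data known. Genes named by rule are CRNDE, HSF1, all members past 1.5-fold and the 3 on each side of it, those of the heat-inducible, TCP1 ring, prefoldin, mitochondrial and BAG lists, the 10 highest members, the members with the largest and smallest change of each J-domain class, and co-chaperones past 1.5-fold. HSPA4, HSPA14, HSPB11, DNAJA2, DNAJC27, DNAJB11, DNAJC8, DNAJC10, DNAJC13, DNAJC17, STIP1, CDC37, AHSA1, UXT, HSF2, HSBP1, HSP90B1, TRAP1, HSCB, GRPEL1 and GRPEL2 were named for their role after their values were seen. The computation was tested on simulated data. Alternatives were pseudocounts of 0.1 and 0.01, 3 scalings, 2 filters, GC correction and a threshold of 2-fold. Python 3.11.15, numpy 2.4.6, pandas 2.3.3 and matplotlib 3.10.9 were used.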

Additional observations from a re-analysis of the deposited data

How the results depend on the processing

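No paired analysis was possible because each group has 1 library and the labels carry no replicate numbers, and for the same reason no library could be left out. With a threshold of 2-fold, 3 members (0 higher, 3 lower) and 3 co-chaperones (2 higher, 1 lower) were called, in place of 8 and 6. Of all listed genes, 6.66% were past 2-fold. The other alternatives gave 6 to 12 members and 4 to 6 co-chaperones, while the share of all genes called ran from 14.1% to 30.0%. The 6 members were those under GC correction, beside 14.8% of all genes. The 12 of 68 members were those with a pseudocount of 0.01, beside 30.0% of all genes. Leaving out HSPG2, chosen after seeing the data, gave 7. Quantile normalization moved the median of the TCP1 ring from 0.24 to 0.13 and that of the mitochondrial members from 0.21 to 0.08, and with only genes of at least 1 FPKM in both libraries the median level was 11.8 and 13.7 FPKM, in place of 10.1 and 11.2. The medians of the remaining lists moved by less than 0.1 on the log2 scale. Among abundant members, 12 of 13 were above 0 after quantile normalization, against 44.5% of all genes at that level. With a pseudocount of 0.01, DNAJC27 (0.61), DNAJC24 (0.92), DNAJB4 (0.71) and CCT6B (1.39) passed 1.5-fold, all under 2 FPKM. DNAJC24 and CCT6B are listed only through sh-CRNDE. At 1.5-fold, GC correction was the only alternative run that ended a member's call (HSPG2 and DNAJC2), and DNAJC30 leaves the set where genes listed at 0 or under 1 FPKM are left out. Depth is unknown, which limits what can be said of members under 2 FPKM, 10 in each library.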

Other observations

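Pseudogenes and readthrough genes with chaperone names were also listed, and reads can be shared between them and their parents. HSP90AB3P was listed at 0 in the control library and was at 1.2 FPKM in the knockdown library. HSPD1P1 (2.01 FPKM) and HSPE1P3 (1.28 FPKM) were the reverse, with values in the control library and listed at 0 in the knockdown library. CCT6P1 was at 3.28 and then 4.30 FPKM, and the readthrough gene HSPE1-MOB4 at 12 and then 12.7 FPKM. The parents HSP90AB1, HSPD1, HSPE1 and CCT6A were each at 135 FPKM or more in both libraries.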
